A study of Mus musculus with 6 samples.

Results

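The Kruppel-like factors (KLFs) are transcription factors that carry a set of zinc fingers at the carboxyl end of the protein and bind CACCC and GC-rich sequences in promoters. This account covers 10 of their genes, Klf2, Klf3, Klf4, Klf5, Klf6, Klf7, Klf9, Klf10, Klf13 and Klf15, chosen by name from the 55487 genes of the count table. RNA was sequenced from primary skin cells of C57BL/6 mice that the labels call endothelial cells (ECs), with 3 samples in normal and 3 in high glucose medium (5 and 20 mmol/L) for 48 hours each, to ask which transcripts respond to a hyperglycemic medium. The cells came from skin pooled from 4 to 6 mice, 2 to 3 months old, digested with collagenase and enriched with magnetic beads against CD31, and both groups shared this preparation and carried no transgene or deletion. The study's legends count these samples as mice, while the labels describe pooled skin and do not say whether the 3 samples of a group were separate isolations. If they were not, the P values measure only the spread between these samples, which may be technical.

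Members of the family are usually sorted by what the rest of the protein binds. KLF3, KLF8 and KLF12 recruit the corepressor CtBP, KLF9, KLF10, KLF11, KLF13, KLF14 and KLF16 recruit the corepressor Sin3A, and KLF2, KLF4, KLF5, KLF6 and KLF7 act mostly as activators. In blood vessels KLF2 and KLF4 are known as flow-induced factors that keep the endothelium quiescent and anticoagulant, and several of the others respond to glucocorticoids, to TGF-β or to tissue injury.

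The 6 libraries held between 120192466 and 146881356 counts, and all 10 genes had at least 105 counts in every library. Levels are given as CPM, counts scaled to a common library total, after TMM normalization, which centers most genes between libraries, and a gene was called changed when edgeR's quasi-likelihood test, run across all 19015 genes with enough counts, gave an adjusted P below 0.05. Markers of ECs were uneven, and in sum far below those of fibroblasts. Pecam1, which encodes the CD31 used for enrichment, had between 9 and 19 counts, Sox17 had 0, Tie1, Cldn5, Robo4 and Emcn had at most 9, and Erg and Esam at most 23. Flt1 had 55.3 ± 2.06 CPM in normal and 38.4 ± 0.153 CPM in high glucose and made up most of the list's sum, while Egfl7, Kdr, Plvap, Cdh5, Tek and Vwf had means between 0.743 and 11.1 CPM. The 15 endothelial markers summed to between 78.6 and 81.5 CPM in normal glucose and between 63.2 and 64.1 CPM in high glucose, and of the 10 with enough counts to test, 3 fell and 3 rose. Erg, among the risers, lost its call with DESeq2, the replicate number as a block, upper quartile normalization and library size scaling (adjusted P between 0.0505 and 0.121). The block left 2 lower and 2 higher, and removal of GC and length trends gave 4 lower and 3 higher. The 13 fibroblast markers summed to between 39541 and 42739 CPM in normal glucose and between 71650 and 76604 CPM in high glucose, with 9 higher and 3 lower. The 7 tested adipocyte markers all rose, and their list summed to between 4191 and 4429 CPM against 6386 to 6847 CPM, most of it Lpl. Cidec lost its call with upper quartile normalization, library size scaling, DESeq2 and the replicate number as a block. Its adjusted P was then between 0.0562 and 0.0825, and 6 of the adipocyte markers were called. Of the mural markers 4 of 7 tested fell and 1 rose, of the macrophage markers 3 of 5 fell, and of the keratinocyte markers 1 of 3 rose, with summed levels of at most 436, 9.89 and 5.06 CPM. The macrophage marker Cd68 lost its call with the block (adjusted P = 0.0903) and with removal of GC and length trends (adjusted P = 0.0727). Beside these counts, 31.4% of all tested genes were called. The part of these markers in the KLF results was not tested, and fewer cells of a type cannot be told apart from less RNA per cell in bulk samples.

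In high glucose 2 of the 10 KLF genes fell, Klf4 and Klf2, and 5 rose, Klf5, Klf9, Klf10, Klf7 and Klf13, while Klf3, Klf6 and Klf15 did not pass the test. Of all tested genes 31.4% were called, with 14.5% lower and 16.9% higher. The falls made up 46.2% of all calls with TMM normalization, 56.5% with upper quartile normalization and 72.9% with scaling by library size alone, which lowered the median of all genes by 0.11 on the log2 scale. Under that last scaling Klf13 lost its call and Klf6 changed sign. The groups did not overlap for 8 of the 10 KLF genes (2 below and 6 above), against 46.4% of all tested genes (21.3% below and 25.1% above). The shares of all tested genes cover every level, and no comparison at matched level was made. The median log2 fold change of the 10 was 0.21, against 0.0062 over all tested genes, and 0.095 against -0.11 with library size scaling. Their summed level was between 560 and 588 CPM in normal glucose and between 628 and 657 CPM in high glucose. That sum depends on the scaling too.

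**Figure D1:**
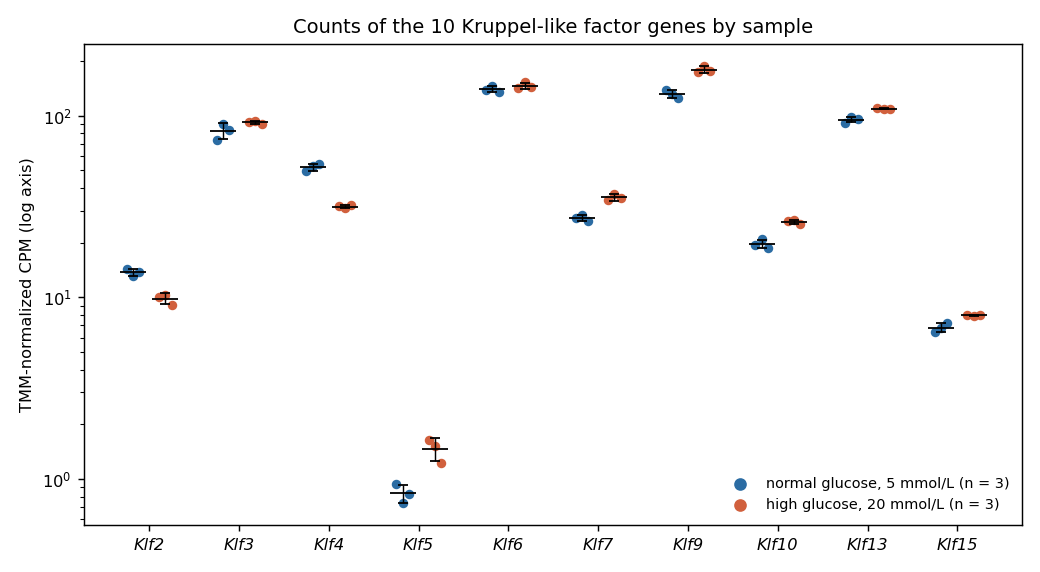
TMM-normalized CPM (log axis) of the 10 KLF genes in each of the 3 normal glucose and 3 high glucose samples, where points are samples and bars show the mean ± SD. All high glucose samples lie below all normal glucose samples for Klf2 and Klf4 and above them for Klf5, Klf7, Klf9, Klf10, Klf13 and Klf15, and the groups overlap for Klf3 and Klf6.

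Among the activators, Klf4 gave the largest fall. KLF4 is known as a barrier and differentiation factor of epithelia and endothelium and as one of the reprogramming factors. Its level was 49.3, 52.9 and 53.9 CPM in normal glucose and 31.6, 31.0 and 32.1 CPM in high glucose, from 6175, 7499 and 6903 counts against 4487, 3603 and 4324. Every high glucose sample was well below every normal glucose sample. The mean dropped from 52.0 ± 2.41 to 31.6 ± 0.550 CPM (SD, n = 3 each), a log2 fold change of -0.72 (SE 0.054, adjusted P = 5.04e-06). Of the 2757 genes that fell, 918, or 33.3%, had a larger fall than Klf4. Klf2, the flow-induced factor of ECs, had 14.3, 13.1 and 13.8 CPM in normal glucose and 10.0, 10.4 and 9.06 CPM in high glucose. The groups were separate here too, and the log2 fold change was -0.48 (SE 0.074, adjusted P = 7.10e-04), near the median of -0.50 among all genes that fell. The ratio of Klf4 to Klf2 counts was 3.44, 4.04 and 3.92 in normal glucose, against 3.15, 2.99 and 3.54 in high glucose, and these ranges overlapped (exact permutation test, two-sided, P = 0.2, smallest possible 0.1). A test of this size cannot pass 0.05, so whether the 2 falls differ was not tested further.

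The promoters of these genes are shown because the 2 genes fell together, as the 250 bases upstream of the RefSeq transcript start (build GRCm38.p6), on the gene's own strand. Promoters were listed for 8 of the 10 KLF genes, all but Klf5 and Klf10. Capitals mark the MEF2 site of Klf2 and the GC boxes (GGGCGG or its reverse complement) of Klf4.
Klf2: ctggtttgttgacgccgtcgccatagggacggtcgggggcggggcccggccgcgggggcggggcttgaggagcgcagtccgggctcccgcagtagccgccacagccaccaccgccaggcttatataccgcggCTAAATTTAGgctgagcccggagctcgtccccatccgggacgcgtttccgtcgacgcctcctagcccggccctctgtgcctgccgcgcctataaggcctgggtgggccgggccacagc
Klf4: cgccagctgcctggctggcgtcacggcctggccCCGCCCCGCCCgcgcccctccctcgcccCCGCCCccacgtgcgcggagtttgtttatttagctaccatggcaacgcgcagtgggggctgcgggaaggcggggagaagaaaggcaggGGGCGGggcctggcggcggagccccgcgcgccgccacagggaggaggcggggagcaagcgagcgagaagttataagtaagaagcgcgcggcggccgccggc
The Klf2 window lies at chr8:72318812-72319061 (plus strand) and the Klf4 window at chr4:55532476-55532725 (minus strand). MEF2 factors are the nuclear end of the MEKK3-ERK5 pathway, the classical input to Klf2, and the marked match lies 118 to 109 bases upstream of the start. A MEF2 match was present in 2.92% of all 32851 promoter windows and in none of the other 7 KLF windows. Klf4 had 4 GC boxes, of which the first pair shares 1 base, and Klf2 had 2, where 32.7% of all windows held at least 1 and 8.47% at least 3. Klf2 also had 1 CACCC match, the letters that KLFs themselves bind, and Klf4 had none. GC content was 71.2% for Klf2 and 74.0% for Klf4, against a median of 52.4%. TATAAA and the CArG box, the element of serum response factor, had no match in any of the 8 windows, and were present in 12.4% and 1.47% of all windows. The motifs were searched on both strands, and a match is a stretch of letters and not a measured binding site.

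Klf5, Klf6 and Klf7 are the other activators in the set, and of them Klf5 and Klf7 rose. Klf5, a growth-promoting factor of basal epithelial cells and remodeling smooth muscle, was the rarest per length, with normal glucose counts of 117, 105 and 106 and high glucose counts of 233, 176 and 166. On the CPM scale these were 0.934, 0.740 and 0.828 against 1.64, 1.51 and 1.23. All high glucose samples were above all normal glucose samples, and the log2 fold change was 0.81 (SE 0.154, adjusted P = 0.00267), the largest rise of the set and the one with the widest error. At its lowest count the counting error alone was 9.76%, against 3.52% for Klf15 and 2.88% for Klf2 and at most 2.05% for the others. The ratio of Klf5 to Klf4 counts went from 0.0161 ± 0.00256 to 0.0464 ± 0.00710, without overlap.

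Klf7, known from neurons and as a brake on fat cell differentiation, had 27.2, 28.2 and 26.2 CPM in normal glucose and 34.3, 37.2 and 35.1 CPM in high glucose. Its log2 fold change was 0.38 (SE 0.056, adjusted P = 4.93e-04), and the groups did not overlap. On the opposite strand 39.3% of the exonic bases of Klf7 are shared with the noncoding gene Gm26649, which was not analysed here. Whether strand was used in counting is not stated, so reads of the 2 genes cannot be told apart and the value for Klf7 is uncertain to that extent. Klf6, an injury-response factor of vessels and liver, had 139, 146 and 135 CPM in normal glucose and 141, 153 and 143 CPM in high glucose. These ranges overlapped, and the log2 fold change was 0.059 (SE 0.055, adjusted P = 0.455), which became -0.057 with library size scaling. The SE of Klf6 was as small as those of Klf4 and Klf7.

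Of the Sin3A recruiters, the 3 described here rose, Klf13 least firmly, and Klf16, described with the rest of the family, fell. Among all tested genes 16.9% rose and 14.5% fell. Klf9, a factor induced by glucocorticoids and thyroid hormone, was the most abundant of them per length. It had 139, 132 and 125 CPM in normal glucose and 173, 188 and 176 CPM in high glucose, with no overlap. The log2 fold change was 0.44 (SE 0.058, adjusted P = 2.69e-04), and 41.1% of the 3212 genes that rose had a larger rise. Klf10, the TGF-β-inducible early gene, had 19.5, 20.8 and 18.6 CPM against 26.4, 26.5 and 25.2 CPM. The rise was of nearly the same size as that of Klf9, with a log2 fold change of 0.41 (SE 0.058, adjusted P = 4.58e-04). Klf13, a close relative of Klf9 known from T cells and heart, had 91.5, 97.8 and 96.0 CPM in normal glucose and 110, 109 and 108 CPM in high glucose. The log2 fold change of 0.20 (SE 0.050, adjusted P = 0.0123) was the smallest called change of the set. That call was lost in 8 of 18 alternative analyses, among them the removal of trends on GC content and length (log2 fold change 0.068, adjusted P = 0.236), library size scaling (0.083, adjusted P = 0.221) and the omission of any 1 of the high glucose samples (adjusted P between 0.0558 and 0.0870). The ratio of Klf9 to Klf13 counts was 1.39 ± 0.114 in normal glucose and 1.64 ± 0.0797 in high glucose, without overlap (exact permutation test, two-sided, P = 0.1, the smallest possible with 3 against 3).

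The Klf9 promoter is shown as the window of the most abundant riser, at chr19:23140976-23141225 (plus strand), with capitals on its CACCC match and on its CCAAT boxes, the letters bound by NF-Y, in either direction.
Klf9: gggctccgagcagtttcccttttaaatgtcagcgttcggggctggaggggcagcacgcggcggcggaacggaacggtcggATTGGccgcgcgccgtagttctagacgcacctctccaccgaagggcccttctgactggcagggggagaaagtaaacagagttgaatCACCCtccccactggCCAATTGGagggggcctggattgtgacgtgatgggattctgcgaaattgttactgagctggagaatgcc
It held 3 CCAAT boxes, which 2.79% of all windows reached, and a pair of them on opposite strands share bases 66 to 65 upstream of the start. It held 1 CACCC match, as 52.0% of windows held at least 1, and no GC box. Its GC content of 59.6% was lower than those of Klf2 and Klf4. The Klf13 window, by contrast, held 3 GC boxes, 2 CCAAT boxes and 1 CACCC match. The windows of the risers thus did not share 1 marked motif that those of the fallers lacked: CCAAT boxes were present in Klf9 and Klf13 but not in Klf7, and also in Klf6, which did not pass the test.

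Klf3, the CtBP-dependent repressor of the set, had 73.7, 90.2 and 83.3 CPM in normal glucose and 91.8, 93.2 and 90.2 CPM in high glucose. The groups met at 90.2 CPM, and the log2 fold change of 0.15 (SE 0.071, adjusted P = 0.124) did not pass the test. The spread lay in the normal glucose samples, at a coefficient of variation of 10.1%, and without replicate 2 of that group the gene was called higher (0.21, adjusted P = 0.0341). The noncoding gene Gm20033 overlaps 3.59% of its exonic bases on the other strand and had only 39 to 68 counts. The Klf3 window was the richest in KLF letters, with 5 CACCC matches and 6 GC boxes, where 0.667% of windows had at least 5 of the former and 1.93% at least 5 of the latter. Its GC content was 78.4%, at percentile 98.3 of all windows, and no comparison was made with windows of similar GC content.

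Klf15, a glucocorticoid-induced regulator of amino acid and glucose metabolism in liver, muscle and fat, had 6.44, 6.76 and 7.24 CPM in normal glucose and 7.96, 7.89 and 7.99 CPM in high glucose. The groups did not overlap, yet the log2 fold change of 0.22 (SE 0.077) fell just short of the threshold (adjusted P = 0.0502). It passed when trends on GC content and length were removed (0.22, adjusted P = 0.0283). Its promoter is shown for a feature that few windows have, a pair of E-boxes (CACGTG, in capitals), at chr6:90462326-90462575 (plus strand).
Klf15: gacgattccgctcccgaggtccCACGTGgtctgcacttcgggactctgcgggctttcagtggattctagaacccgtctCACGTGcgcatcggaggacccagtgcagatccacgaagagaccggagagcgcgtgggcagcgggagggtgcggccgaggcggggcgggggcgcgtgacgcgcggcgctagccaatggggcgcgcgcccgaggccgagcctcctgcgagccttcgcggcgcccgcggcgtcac
A pair or more of CACGTG matches was found in 0.429% of all windows, against 6.02% with at least 1.

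**Figure D2:**
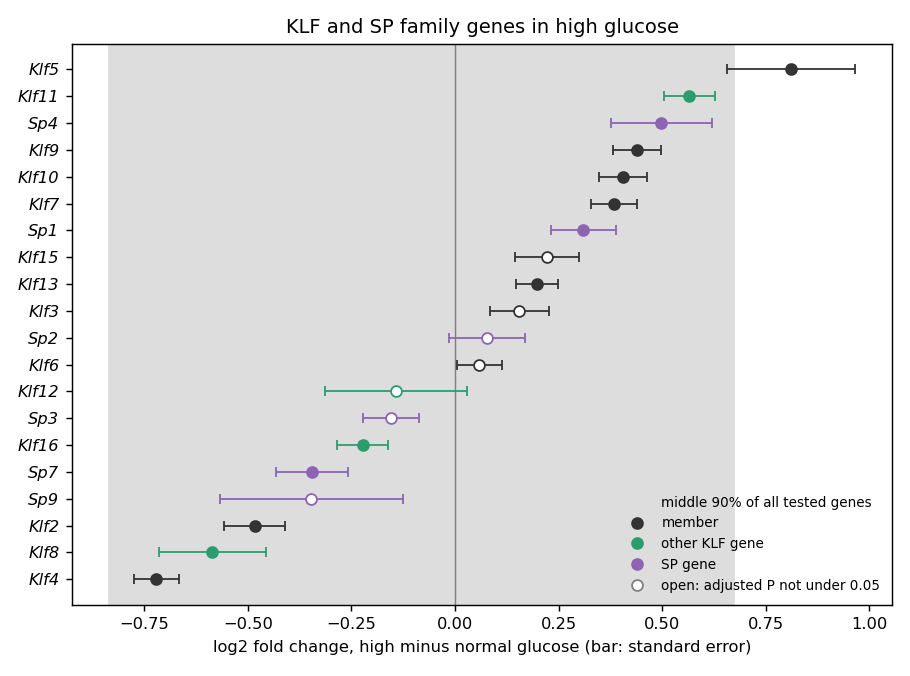
Log2 fold change in high against normal glucose (x axis) for the 20 tested KLF and SP genes (rows), with bars for the SE and open points where the adjusted P was not under 0.05. Klf5 stands at 0.81 and Klf4 at -0.72, at opposite ends, and the gray band covers the middle 90% of all tested genes.

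Levels of different genes were compared per length, as normalized CPM per kilobase of exon. In normal glucose the order was Klf6 (31.8 ± 1.27), Klf9 (27.4 ± 1.44), Klf4 (17.1 ± 0.790), Klf13 (12.6 ± 0.433), Klf2 (7.43 ± 0.337), Klf3 (7.33 ± 0.739), Klf10 (4.70 ± 0.261), Klf7 (3.35 ± 0.121), Klf15 (2.44 ± 0.145) and Klf5 (0.160 ± 0.0187). Klf2 and Klf3 overlapped in that order and the other neighbors did not. In high glucose Klf9 (37.2 ± 1.64) stood above Klf6 (33.2 ± 1.42), Klf13 (14.5 ± 0.123) above Klf4 (10.4 ± 0.180), and Klf3 (8.16 ± 0.136) and Klf10 (6.23 ± 0.171) above Klf2 (5.31 ± 0.366), with no overlap between neighbors. Klf9 thus passed Klf6, Klf13 passed Klf4, and Klf2 came to lie below Klf3 and Klf10.

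Of the length-corrected counts of all 17 KLF genes of the mouse, Klf4 made up 12.9%, 13.4% and 14.3% in normal glucose, against 7.84%, 7.38% and 7.97% in high glucose. Klf9 made up at most 23.1% in normal glucose (mean 21.8% ± 1.14) and 27.1%, 28.3% and 27.8% in high glucose. Both shares were separate between the groups, while that of Klf6 stayed at 25.3% ± 0.478 and 24.7% ± 0.479. The summed level of the family was 126 ± 2.64 and 134 ± 3.25 CPM per kilobase after TMM normalization. That difference depends on the TMM factors, which were 1.03 to 1.05 in normal glucose and 0.954 to 0.966 in high glucose. The ratio of Klf4 to Klf9 counts, which does not depend on library scaling, was 0.355, 0.401 and 0.431 in normal glucose, against 0.183, 0.165 and 0.182 in high glucose (exact permutation test, two-sided, P = 0.1, the smallest possible).

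**Figure D3:**
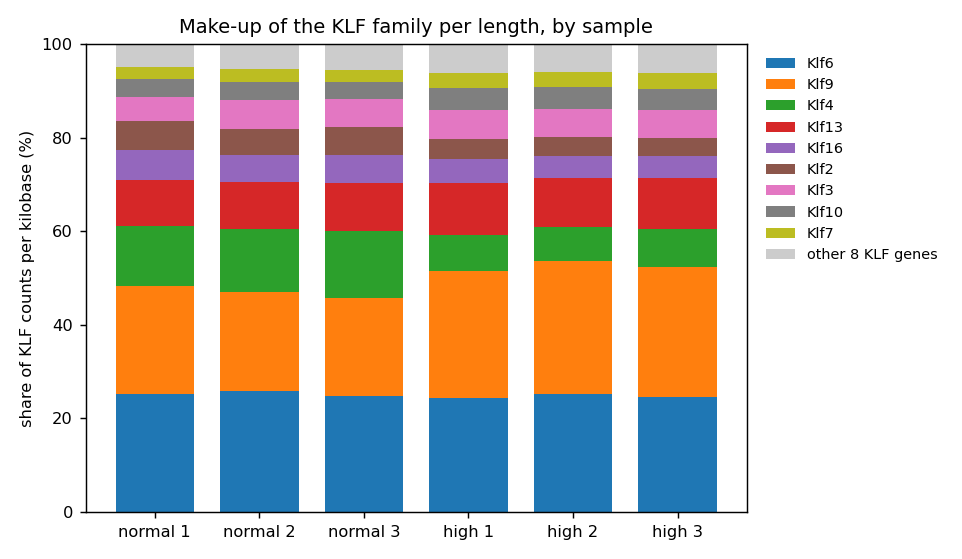
Share of each KLF gene in the length-corrected counts of all 17 KLF genes (y axis, %) in the 6 samples. The Klf4 band narrows from a mean of 13.5% in normal glucose to 7.73% in high glucose, and the Klf9 band widens from 21.8% to 27.7%.

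The other 7 KLF genes add to the picture in both directions. Klf11, the nearest relative of Klf10 and a Sin3A recruiter, had 11.0, 12.1 and 11.6 CPM in normal glucose, and each high glucose sample had 17.1 CPM. Its log2 fold change was 0.57 (SE 0.061, adjusted P = 6.11e-05). Klf8, of the CtBP-binding kind, dropped from 1.48 ± 0.141 to 0.988 ± 0.0691 CPM (log2 fold change -0.59, adjusted P = 0.00656). Klf16 dropped from 20.3 ± 0.948 to 17.4 ± 0.831 CPM (-0.22, adjusted P = 0.0202). Klf12 did not pass the test (-0.14, adjusted P = 0.569), with normal glucose counts of 633, 1295 and 996. Klf1, the erythroid factor, had at most 10 counts, and Klf14 and Klf17 had 0 in all samples. By the corepressor groups given above, a grouping applied after the values were seen, the tested Sin3A recruiters were called higher in 4 cases (Klf9, Klf10, Klf11 and Klf13) and lower in 1 (Klf16). The CtBP recruiters were called lower in 1 (Klf8) and not called in 2 (Klf3 and Klf12). Of the activators, Klf2 and Klf4 were called lower, Klf5 and Klf7 higher, and Klf6 was not called. Beside these, 16.9% of all tested genes were called higher and 14.5% lower, and Klf13 lost its call in 8 of 18 alternative analyses.

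The SP factors bind the same GC boxes through the same kind of zinc fingers. Of the 9 SP genes 6 were tested, of which 1 fell and 2 rose. Sp1 rose from 44.7 ± 5.17 to 55.4 ± 1.87 CPM (log2 fold change 0.31, adjusted P = 0.0122), a call that library size scaling removed (0.19, adjusted P = 0.0914), and Sp4 rose from 3.89 ± 0.636 to 5.49 ± 0.352 CPM (0.50, adjusted P = 0.0112). Sp7, the osteoblast factor, fell from 7.83 ± 0.654 to 6.17 ± 0.222 CPM (-0.34, adjusted P = 0.0121). Sp3 had 127 ± 10.5 and 114 ± 4.87 CPM without overlap and did not pass the test (-0.15, adjusted P = 0.105). It was called lower with upper quartile normalization, library size scaling and removal of GC and length trends (adjusted P between 0.0117 and 0.0413). Sp2 and Sp9 did not pass the test either. Sp5 had at most 8 counts and Sp6 and Sp8 had 0. Over all 26 KLF and SP genes, 20 were tested, of which 5 fell, 8 rose and 7 did not pass, which is 65% called against 31.4% of all tested genes. The latter share covers genes of all levels, and no comparison at matched level was made. By mean CPM the 20 ranged from percentile 20.5 (Sp9) to percentile 93.7 (Klf9) of all tested genes.

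The next lists follow the pathway from its inputs to its targets. Their counts of calls stand beside 31.4% of all tested genes called, 14.5% lower and 16.9% higher. The classical input to Klf2 and Klf4 in endothelium runs from MEKK3 through MEK5 and ERK5 to the MEF2 factors and is restrained by the CCM complex. Of these 11 genes, all tested, 1 rose and 10 did not pass in the reported edgeR test or by DESeq2. With GC and length trends removed Ccm2 was called higher too (0.16, adjusted P = 0.0397). At an unadjusted P under 0.05 in the reported test there were 5, all higher in high glucose. They belong both to the cascade (Map3k2, Map3k3 and Mef2d) and to the complex that restrains it (Ccm2 and Heg1). That common direction depends on the scaling, since library size scaling moved the list's median from 0.12 to 1.71e-04. The gene called in the reported test was Heg1, the membrane anchor of the CCM complex. It went from 172 ± 15.8 to 259 ± 4.17 CPM (log2 fold change 0.59, adjusted P = 9.90e-05). The ERK5 gene Mapk7 stood at 0.096 (adjusted P = 0.174) and Mef2c at 0.15 (adjusted P = 0.180). Of 10 genes induced by glucocorticoids, a known input to Klf9 and Klf15, 4 rose and 2 fell. Zbtb16 (1.21, adjusted P = 0.00151) and Per1 (0.40, adjusted P = 0.00158) rose and Fkbp5 (-0.32, adjusted P = 6.73e-04) and Dusp1 (-0.34, adjusted P = 0.00352) fell, while Tsc22d3, a classical member, had 0.044 (adjusted P = 0.687). With upper quartile normalization or library size scaling 3 glucocorticoid genes were lower and 3 higher. Library size scaling moved the median of that list from 0.077 to -0.038. Of 7 immediate response genes of TGF-β, the known input to Klf10, 3 fell and 1 rose. Smad7, the inhibitory Smad, fell by 0.59 on the log2 scale (adjusted P = 2.31e-05), Pmepa1 by 0.20 (adjusted P = 0.0148) and Skil by 0.23 (adjusted P = 0.0158), and Ski rose by 0.19 (adjusted P = 0.0259). The rise of Ski lost its call with upper quartile normalization, library size scaling, removal of GC and length trends and the replicate block (adjusted P between 0.0563 and 0.333), and scaling by library size alone left 4 lower and 0 higher. Of 10 immediate early genes of serum, the class in which Klf4, Klf6 and Klf10 are often placed, 3 fell and 2 rose. Fos (-0.58, adjusted P = 1.90e-04), Ier3 (-0.35, adjusted P = 0.00152) and Egr3 (-0.63, adjusted P = 0.0136) fell and Jun (0.24, adjusted P = 0.00421) and Srf (0.22, adjusted P = 0.0395) rose. With library size scaling the split was 5 lower and 0 higher, and with the replicate block Srf lost its call (adjusted P = 0.0609).

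The next lists hold partners of the KLF proteins, and their counts again stand beside 31.4% of all tested genes called. Of 11 corepressor and coactivator genes 5 rose and 1 fell. The acetyltransferase gene Ep300 had the largest rise, from 54.4 ± 11.8 to 82.7 ± 2.84 CPM (log2 fold change 0.60, adjusted P = 0.00524), followed by Kat2b (0.30, adjusted P = 0.00878), Crebbp (0.29, adjusted P = 0.0129) and the CtBP gene Ctbp2 (0.22, adjusted P = 0.00837), and Sin3a rose by 0.16 (adjusted P = 0.0425). Hdac1 fell by 0.15 (adjusted P = 0.0356). With library size scaling only Ep300 stayed higher and 2 genes were lower, and the median changed from 0.071 to -0.044. Removing GC and length trends left 3 higher and 2 lower, with Crebbp at 0.056 (adjusted P = 0.469), and the replicate block left 4 higher and 0 lower, without Sin3a (adjusted P = 0.0626) and Hdac1 (adjusted P = 0.0716). Of 5 ubiquitin ligase genes that act on KLF proteins Siah1a was called higher (0.22, adjusted P = 0.0230), a call lost with the replicate block (adjusted P = 0.0509), upper quartile normalization and library size scaling. Wwp1, a ligase of KLF2 and KLF5, just missed the threshold (-0.20, adjusted P = 0.0513) and was called lower with the replicate block (adjusted P = 0.0343), DESeq2 (adjusted P = 0.0203), each of the 3 other scalings, and removal of GC and length trends.

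Targets were mixed as well, and their counts too stand beside 31.4% of all tested genes called. Of 12 endothelial genes that textbooks place under KLF2 and KLF4, 9 were tested, 3 fell and 2 rose, with 5 lower and 2 higher under library size scaling. Thbd, the anticoagulant thrombomodulin that KLF2 and KLF4 induce, fell from 321 ± 13.7 to 216 ± 6.31 CPM (log2 fold change -0.57, adjusted P = 2.34e-05). Tek, another gene KLF2 is known to induce, rose by 0.66 (adjusted P = 0.00219), opposite to Klf2. Ptgds, a further one, was too scarce to test, with at most 3 counts in normal glucose and 6 to 12 in high glucose. Nos3, also induced by these factors, had only 18 to 55 counts, and its log2 fold change of -0.094 was not called (adjusted P = 0.865). Among genes that the factors are known to repress, Ccl2 fell from 462 ± 16.2 to 217 ± 3.44 CPM (-1.09, adjusted P = 1.94e-07) and Il6 rose from 15.7 ± 1.30 to 40.0 ± 1.70 CPM (1.34, adjusted P = 3.85e-07). Thbs1 fell by 0.49 (adjusted P = 5.80e-05), and Vcam1 (-0.041, adjusted P = 0.611) passed only with library size scaling (-0.16, adjusted P = 0.0438). The endothelial markers beside which these values stand are given above, and their part was not tested. Of 5 tested amino acid and glucose genes linked to KLF15 none was called by edgeR's quasi-likelihood test as reported, where Klf15 itself narrowly missed the threshold. At an unadjusted P under 0.05 there was 1 (Bckdha, log2 fold change 0.17). Removal of GC and length trends called Bckdha higher (0.17, adjusted P = 0.0114). DESeq2 called 0, and library size scaling called 1 lower.

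Of the adipogenic regulators, 6 of 7 were tested and 2 rose, a share of 33.3% beside the 31.4% of all tested genes. Cebpa had 148 ± 6.77 and 195 ± 7.42 CPM (log2 fold change 0.40, adjusted P = 3.89e-04) and Cebpb 278 ± 31.8 and 349 ± 23.4 CPM (0.33, adjusted P = 0.0125). Pparg had 0.044 (adjusted P = 0.587) and Fabp4 0.11 (adjusted P = 0.475), and neither was called. With library size scaling Cebpb lost its call (0.21, adjusted P = 0.0678) and Gata2 was called lower (-0.29, adjusted P = 0.0174). Of the KLF genes with known roles in fat cells, Klf5, Klf7 and Klf9 rose beside them, Klf2 and Klf4 fell, and Klf3, Klf6 and Klf15 did not pass the test. The tested adipocyte markers, given above, had a median log2 fold change of 0.57, against 0.076 for the adipogenic regulators. The part of these markers was not tested. Of 8 proliferation genes described as KLF targets, 5 fell and 2 rose, with a median log2 fold change of -0.30. That is 87.5% called, beside 31.4% of all tested genes, and no comparison at matched level was made. Ccnd1 (-1.40, adjusted P = 5.57e-08) and Ccnb1 (-1.29, adjusted P = 3.39e-07) fell most, and Cdkn1a, the p21 gene that KLF4 is known to induce, fell from 546 ± 27.0 to 328 ± 7.63 CPM (-0.73, adjusted P = 4.71e-06). Cdkn1c rose from 20.3 ± 1.52 to 36.1 ± 1.22 CPM (0.83, adjusted P = 6.68e-06). The 3 cyclins of the list all fell, and the cell cycle inhibitors moved in both directions.

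**Figure D4:**
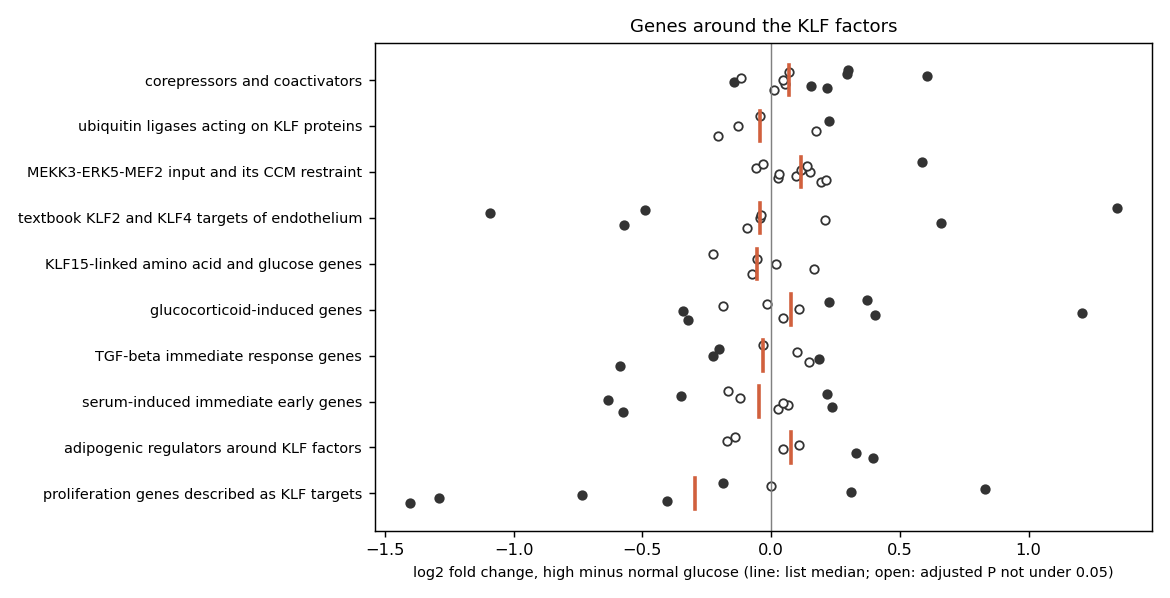
Log2 fold change in high against normal glucose (x axis) of each tested gene in 10 lists around the KLF factors (rows), with the list median as a line and open points where the adjusted P was not under 0.05. The proliferation list has the lowest median, -0.30, and the medians of the other lists lie between -0.056 and 0.12.

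Over the 6 samples, the genes whose log2 CPM ran most like that of Klf4 were Csf1 (Pearson r = 0.999), E2f7 (r = 0.999) and Kif20a (r = 0.999) among 12433 candidates. All of them fell, by 0.64, 1.12 and 1.34 on the log2 scale. For Klf5 they were Nat8f1 (r = 0.999), Pccb (r = 0.993) and Sap30l (r = 0.991), with log2 fold changes of 0.26, 0.18 and 0.27, the first of which was not called (adjusted P = 0.0707). These correlations describe 6 points that share the same libraries and the same difference between groups, and 851 genes had r over 0.95 with Klf4 and 153 with Klf5.

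**Figure D5:**
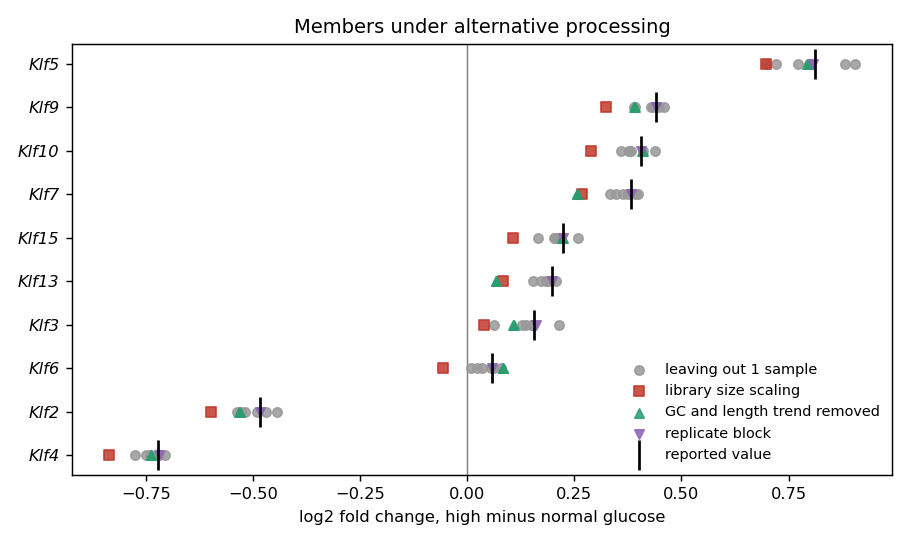
Log2 fold change in high against normal glucose (x axis) of the 10 KLF genes (rows) as reported and under alternative processing. Klf4 stays between -0.84 and -0.71 and Klf5 between 0.70 and 0.91, and Klf6 crosses 0 with library size scaling.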

How the data were processed

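Bulk RNA-sequencing counts of 6 samples were used, 3 in normal and 3 in high glucose, grouped by their labels. The authors trimmed reads with Trimmomatic, aligned them to GRCm38 (mm10) with HISAT2 and counted reads per gene with StringTie, and deposited the raw counts without normalization. Versions, annotation release and strand setting are not given in the sources used here, and the labels name TRIzol and DNBSeq where the methods name a QIAGEN kit and HiSeq. Of 55487 identifiers 55141 had a symbol, and the rest held 0.034% of counts.

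Counts were filtered with filterByExpr (minimum count 10, minimum total 15), normalized by TMM and tested with edgeR 4.0.16 (R 4.3.3) by the quasi-likelihood test, with P values adjusted after Benjamini and Hochberg over 19015 genes. SEs came from the test statistic. A floor of 3 counts was 0.0211 to 0.0258 CPM. Counts of 2 were nearly as frequent as counts of 1 (9280 against 10842 entries), so counts may not be independent molecules, and floors and counting errors cover counting error only. Gene positions and exon lengths came from GENCODE M21 for GRCm38, promoters from RefSeq (GRCm38.p6). The fit was checked on simulated counts in which few genes changed, in random directions. That check does not cover changes as widespread as those in these data.

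The 10 genes, the lists and the rule for named genes were chosen with earlier results of these data known. Named were all 10 genes, called KLF and SP genes with those needed to account for the family, up to 4 called genes per list with the smallest adjusted P, genes with overlapping exons, and the 3 genes most like the largest faller and riser. Other list genes were added after their values were seen, as examples of list members. They include Nos3, Mapk7, Mef2c, Mef2d, Map3k2, Map3k3, Ccm2, Vcam1, Tsc22d3, Pparg, Fabp4, Sin3a, Hdac1, Tek, Ptgds, Wwp1, Gata2, Bckdha, Srf, Cidec and Cd68. Alternatives were other normalizations, filters, tests (DESeq2 1.42.0, likelihood ratio), thresholds, halved counts, removal of trends on GC content and length per library (mgcv 1.9.3), the replicate block, and each sample left out. Replicates differed by more than sampling noise (chi-square per degree of freedom at least 9.64).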

Additional observations from a re-analysis of the deposited data

How the results depend on the processing

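Under 18 alternatives Klf4 (-0.84 to -0.71) and Klf5 (0.70 to 0.91) were called in all, and Klf2 (-0.60 to -0.45), Klf7 (0.26 to 0.40), Klf9 (0.32 to 0.46) and Klf10 (0.29 to 0.44) in 17, lost only to a minimum fold of 1.5. That minimum left 1 KLF gene lower (Klf4) and 1 higher (Klf5), and 1165 lower and 895 higher genes in all. Klf13 was called in 10, Klf3 and Klf15 in 1 each and Klf6 in none. With library size scaling Klf6 reversed to -0.057 (adjusted P = 0.453), and all genes split into 4881 lower and 1819 higher. An adjusted P under 0.01 left 1671 and 1946. DESeq2 called 2988 lower and 3134 higher. Leaving out 1 sample at a time gave 2048 to 3065 lower and 1988 to 3149 higher genes, and always 2 lower KLF genes, with 4 to 6 higher. The cause of these shifts was not tested. Klf5 had the lowest counts and the widest error of the set, and with halved counts it stood at 0.80 (adjusted P = 0.00289).

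Same-numbered samples are not stated to be paired. Their deviations from the group means correlated at 0.0284, 0.0749 and 0.110, each sample most with its own number. Deviations of 3 samples from their own mean are tied to each other, so such a match can arise without pairing and does not show it. With the replicate number as a block 2 KLF genes were lower and 5 higher, as without it, and 2418 genes were lower and 2909 higher in all.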
